A study of Mus musculus with 21 samples.

Results

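The genes described here encode RNA polymerase III subunits and factors that start or repress its transcription: Polr3a, Polr3b, Polr3c, Polr3d, Polr3e, Polr3g, Polr3k, Brf1, Brf2 and Maf1. They were taken by symbol from the deposited expression table, as 10 of its 20900 genes, and all 10 passed the filter on low values that left 14666 genes for testing. The table covers 21 poly(A)-selected RNA libraries in 7 groups of 3, made from the E14 line of mouse embryonic stem cells, which is of the 129 strain and was grown with LIF and fetal bovine serum. Cells were collected before treatment (0 h, the control) or after 2 h, 4 h or 8 h in 1 µM BMH-21, or after 2 h, 4 h or 8 h in 1 µM CX-5461. Both compounds are known as inhibitors of RNA polymerase I, the enzyme that transcribes the large ribosomal RNA genes. The comparisons with control share the same 3 libraries at 0 h for either inhibitor, and none has a control of the same age. No gene was deleted or tagged in any group, and every sample came from the same line. Nothing in the labels says that replicates were separate cultures, so p-values measure only the spread between these samples, which may be technical.

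RNA polymerase III makes short untranslated RNAs, among them transfer RNAs, the 5S ribosomal RNA and the U6 spliceosomal RNA. Its core is built around a pair of large catalytic subunits, encoded by Polr3a and Polr3b, and carries peripheral subunits that help it start, stop and begin again. TFIIIB places the enzyme at its start site and exists in a form with BRF1, used at transfer RNA and 5S genes, and a form with BRF2, used at promoters such as that of U6. MAF1 binds the enzyme and represses it when growth is restrained. The enzyme exists with either of the paralogous subunits POLR3G and POLR3GL, of which POLR3G is known for its high level in pluripotent cells.

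The libraries held 46604397 to 62812641 reads assigned to genes, recovered from the deposited log2 values, and each of the 10 genes had 1223 to 7070 reads in every library. Levels below are log2 normalized values after each library was centred on the median of its tested genes, so a difference of 1 is a doubling. Centring removed library-wide shifts in the deposited scale, whose medians against control were -0.08, -0.15 and -0.21 at 2 h, 4 h and 8 h of BMH-21 and -0.15, -0.16 and 0.22 at those times of CX-5461. Differences depend on this choice, and not only small ones. After 8 h of CX-5461 Polr3a was at -0.44 against control on the centred values and -0.23 on the deposited values. Between the inhibitors at 8 h Brf2 was at 0.01 and -0.41. Each call was therefore repeated on the deposited values, with median-ratio size factors and with quantile normalization. Below, "all 4 scalings" means those 3 and the centred values. A gene was called where limma gave a Benjamini-Hochberg adjusted p below 0.05 over all tested genes. In bulk RNA, fewer cells of a type and less RNA per cell cannot be told apart.

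On the centred scale most of the 10 genes were called lower by 8 h of either inhibitor, and Polr3g, Polr3e and Polr3a fell furthest. Others lay near the middle of all tested genes. At 8 h of BMH-21, 53.3% of genes had a lower difference than Polr3b, 50.2% than Brf2, 43.1% than Maf1 and 41.2% than Polr3k. At 8 h of CX-5461 the shares were 47.9% for Maf1, 42% for Brf1 and 41.6% for Brf2. For Polr3e the shares with BMH-21 and CX-5461 were 15.1% and 10.5%, and for Polr3a 20.1% and 17.4%. After 2 h of BMH-21, limma called 2 genes higher and 2 lower, where 36% of all tested genes were called, 18.6% higher and 17.5% lower. After 4 h of BMH-21 1 gene was higher and 5 were lower, against a background of 73.6% called, 32.2% higher and 41.5% lower. After 8 h of BMH-21 1 was higher and 9 were lower, with a median difference of -0.36 where the median over all tested genes was -0.19, and 84.6% of all genes were called, 33.3% higher and 51.3% lower. CX-5461 gave 2 higher and 2 lower at 2 h (background 33.6%, 15.8% higher and 17.8% lower). At 4 h of CX-5461 the counts were 0 higher and 6 lower (74.2%, 28.5% higher and 45.7% lower). At 8 h of CX-5461 they were 0 higher and 9 lower (74%, 29.3% higher and 44.7% lower), with a median difference of -0.27 against -0.11 over all genes. These counts depend on the scaling. How many of all tested genes were called under all 4 scalings was not counted. Counts under all 4 scalings, here and below, therefore have no background share beside them. Under all 4 scalings 7 genes were lower after 8 h of BMH-21, 6 after 4 h of CX-5461, 3 after 4 h of BMH-21, 2 after 8 h of CX-5461, 1 after 2 h of CX-5461 and 0 after 2 h of BMH-21, and no gene was called higher under all 4 in any comparison with control.

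**Figure D1:**
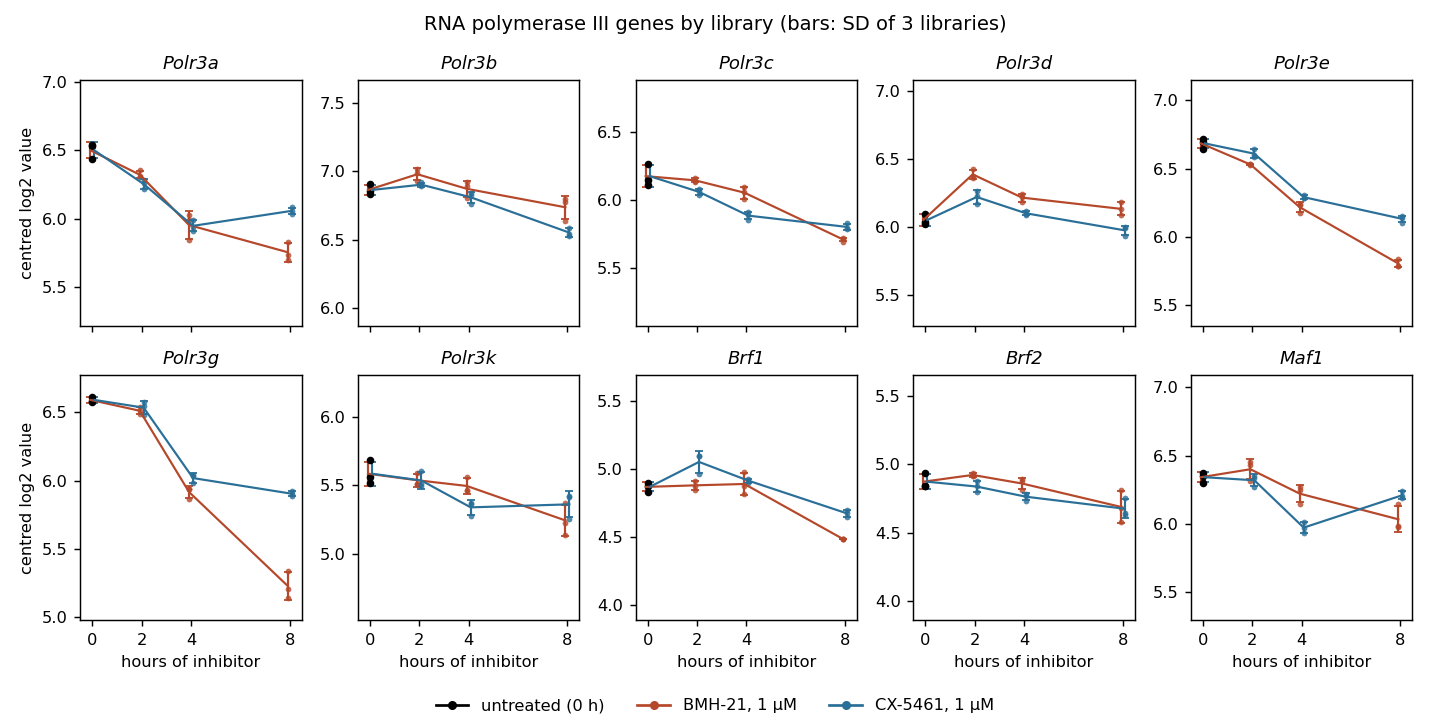
Centred log2 value (y axis) of each of the 10 genes in the 21 libraries against hours of inhibitor (x axis), with points for libraries, lines through group means and bars for the SD of 3 libraries. Polr3g, Polr3e and Polr3a are lower at 4 h and 8 h than in control, and Polr3d is highest at 2 h of BMH-21 (6.36 to 6.42).

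Divided by the length of their annotated exons, so that genes can be compared, the control levels were highest for Maf1, at 5.07 log2 units per kb. Polr3g (4.61), Polr3d (4.54), Polr3b (4.47), Polr3c (4.41) and Polr3e (4.36) followed, and Polr3a (3.96) and Polr3k (3.94) lay below them. From Polr3d down to Polr3e each gene's range over the 3 libraries overlapped that of its neighbour in this order, as did those of Polr3a and Polr3k, while the ranges of Maf1, Polr3g, Brf2 and Brf1 overlapped those of no other of the 10. Brf2 (3.19) and Brf1 (1.91) were lowest. After 8 h of BMH-21 the order had changed: Maf1 (4.76) and Polr3d (4.62) led, and Polr3g, at 3.25, stood beside Polr3a, at 3.21. Exon lengths came from GENCODE M21, not necessarily the annotation used by the submitters, and the isoforms present were not measured.

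Polr3g encodes a subunit of the initiation trimer and lies on the minus strand of chromosome 13 (GRCm38, chr13:81673843-81711013). Its promoter is shown beside that of its paralog Polr3gl (minus strand, chr3:96577872-96594181), because the ratio of this pair is followed below. The windows run from 250 bases before to 50 bases after the RefSeq gene start in GRCm38.p6, 5′ to 3′ on the gene's strand, at chr13:81710964-81711263 for Polr3g and chr3:96594132-96594431 for Polr3gl.
Polr3g: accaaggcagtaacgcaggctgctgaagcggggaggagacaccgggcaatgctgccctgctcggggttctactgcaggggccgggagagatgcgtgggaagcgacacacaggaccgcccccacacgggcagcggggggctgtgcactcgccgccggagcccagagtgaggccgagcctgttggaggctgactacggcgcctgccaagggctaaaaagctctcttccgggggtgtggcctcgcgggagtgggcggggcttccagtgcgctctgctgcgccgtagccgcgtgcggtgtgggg
Polr3gl: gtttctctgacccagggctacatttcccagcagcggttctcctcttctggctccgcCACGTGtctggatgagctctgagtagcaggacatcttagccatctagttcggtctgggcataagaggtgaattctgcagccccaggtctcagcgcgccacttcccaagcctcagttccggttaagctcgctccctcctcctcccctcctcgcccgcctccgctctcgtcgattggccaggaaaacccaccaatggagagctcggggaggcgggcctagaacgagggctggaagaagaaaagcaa
Capitals mark the letters CACGTG, the E-box bound by MYC and USF factors. CACGTG stood in the Polr3gl window, with its first base at -194 from the gene start, and was not in the Polr3g window. It was present on either strand in 7.15% of 32851 mouse windows of this length. CCGGAAGT, an ETS-type string, was in 3.89% of windows and the palindrome bound by NRF1 in 0.971%, and neither was in this pair. Such matches describe letters only.

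At 8 h of either inhibitor Polr3g had fallen furthest of the 10 genes. In the 3 control libraries it stood at 6.58, 6.61 and 6.58. It was 6.49, 6.51 and 6.54 after 2 h of BMH-21, then 5.94, 5.94 and 5.87 at 4 h and 5.34, 5.21 and 5.14 at 8 h. With CX-5461 it was 6.58, 6.48 and 6.55 at 2 h, 5.98, 6.04 and 6.04 at 4 h, and 5.89, 5.92 and 5.90 at 8 h. Every library of the 4 h and 8 h groups was below every control library, and the BMH-21 libraries kept dropping between those times. The 2 h differences were -0.08 with BMH-21 and -0.06 with CX-5461 and were not called (limma adjusted p = 0.16 and 0.33). At 4 h Polr3g had fallen by 0.67 in BMH-21 and 0.57 in CX-5461 (SE 0.04, limma adjusted p = 8.5e-13 and 2.2e-11). At 8 h it had fallen by 1.36 with BMH-21, to 38.9% of the control level, and by 0.69 with CX-5461, to 62.1% (limma adjusted p = 5.8e-19 and 1.1e-12). All 4 scalings called both the 4 h and the 8 h falls. Among all tested genes, at 8 h 5.11% had a lower difference than Polr3g in BMH-21 and 5.30% in CX-5461.

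Polr3gl was scarcer, with 320 to 610 reads per library. Its group means were 3.21 in control, 3.41, 3.06 and 2.71 after 2 h, 4 h and 8 h of BMH-21, and 3.23, 2.86 and 3.25 after the same times in CX-5461. It fell by 0.50 at 8 h of BMH-21 (limma adjusted p = 9.8e-05) and by 0.35 after 4 h of CX-5461 (limma adjusted p = 0.0039), and was 0.04 above control after 8 h of CX-5461 (limma adjusted p = 0.75), a value that turned to -0.12 under quantile normalization. The log2 ratio of Polr3g to Polr3gl within a library is not changed by a scaling factor per library, but it is by quantile normalization. It was 3.43, 3.53 and 3.19 in the control libraries, 2.67, 2.43 and 2.46 at 8 h of BMH-21, and 2.60, 2.73 and 2.63 at 8 h of CX-5461. The 8 h libraries of both inhibitors lay below all controls, by 0.86 and 0.73 in the mean, each with an exact two-sided permutation p of 0.1 (0.2 after Benjamini-Hochberg adjustment over 12 ratio comparisons), the smallest that 3 against 3 allows. With quantile normalization these changes were -0.44 and -0.36, and the change at 4 h of CX-5461, -0.22 in the main values, was 0.09. At 2 h the mean ratio was 3.10 with BMH-21, below all controls, and 3.30 with CX-5461, which overlapped them. At 4 h it was 2.86 and 3.16, and both groups reached into the control range.

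**Figure D2:**
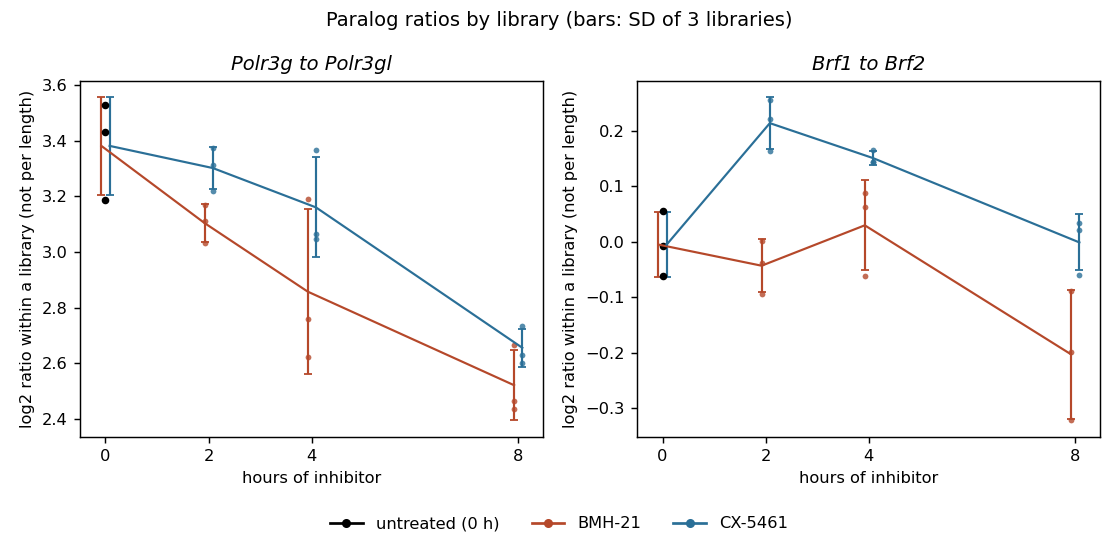
Log2 ratios of Polr3g to Polr3gl and of Brf1 to Brf2 within each library, not per length (y axis), against hours of inhibitor (x axis), with points for libraries, lines through group means and bars for the SD of 3 libraries. The Polr3g to Polr3gl ratio goes from 3.38 in control to 2.52 and 2.66 at 8 h, while Brf1 to Brf2 stays between -0.32 and 0.26.

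Polr3a, the largest catalytic subunit (minus strand, chr14:24448696-24487058), fell at every time with both inhibitors. Its control libraries stood at 6.43, 6.54 and 6.53, those after 8 h of BMH-21 at 5.83, 5.70 and 5.73, and those after 8 h of CX-5461 at 6.05, 6.08 and 6.04. All of its treated libraries were below all controls. The falls were 0.18, 0.55 and 0.75 at 2 h, 4 h and 8 h of BMH-21 (SE 0.05, limma adjusted p = 0.0037, 1.8e-10 and 3e-13), of which the 2 h value was -0.25 and not called on the deposited values. With CX-5461 they were 0.25, 0.55 and 0.44 (limma adjusted p = 0.00017, 1.7e-10 and 9.2e-09), of which the 8 h value was -0.23 and not called on the deposited values. Polr3b, the other catalytic subunit (plus strand, chr10:84622292-84727178), had smaller differences. Its control libraries were at 6.83, 6.86 and 6.91, those after 8 h of BMH-21 at 6.78, 6.64 and 6.80, and those after 8 h of CX-5461 at 6.53, 6.59 and 6.54. It was 0.12 higher at 2 h of BMH-21 (limma adjusted p = 0.034), a call lost on leaving out control replicate 1 or 2 or BMH-21 replicate 2 or 3 (0.10 to 0.11), under quantile normalization (0.11) and on the deposited values (0.04). It was -0.13 at 8 h (limma adjusted p = 0.0074), a sign that turned to 0.02 with median-ratio factors and 0.15 with quantile normalization. Quantile normalization thus called Polr3b higher there (limma adjusted p = 0.0024), opposite to the centred call. Without BMH-21 replicate 2 the 8 h value was -0.08 (limma adjusted p = 0.072). After 8 h of CX-5461 Polr3b fell by 0.31 (limma adjusted p = 4.7e-07). That 8 h difference was -0.10 on the deposited values and -0.06 with quantile normalization, and neither was called. At 4 h of CX-5461 quantile normalization alone called it higher (0.12). The exons of Polr3b share 247 bases, 4.69% of their length, with Gm17249 on the opposite strand.

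POLR3D and POLR3E form a heterodimer on the core that takes part in initiation and termination. Polr3e (plus strand, chr7:120917744-120947432) is shown by its promoter because a transfer RNA gene, itself a kind of gene that RNA polymerase III reads, lies within the window. The window is chr7:120917528-120917827 in GRCm38.p6 by RefSeq, 5′ to 3′ on the plus strand.
Polr3e: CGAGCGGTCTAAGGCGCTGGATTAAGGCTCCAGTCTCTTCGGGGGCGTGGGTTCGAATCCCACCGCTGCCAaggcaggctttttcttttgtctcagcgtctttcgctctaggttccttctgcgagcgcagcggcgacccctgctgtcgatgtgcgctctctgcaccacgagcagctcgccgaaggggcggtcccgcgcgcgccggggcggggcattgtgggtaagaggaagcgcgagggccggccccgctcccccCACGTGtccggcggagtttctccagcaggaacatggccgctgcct
The first run of capitals marks 71 of the 82 bases of n-TLaag4, a leucine transfer RNA gene at chr7:120917517-120917598. It ends 180 bases before the RefSeq start of Polr3e, and the second run marks CACGTG at position 6 from that start. All such positions count from RefSeq gene starts. Those of Polr3e, Polr3b, Polr3c and Polr3k are not the starts of the GENCODE spans given in this report. Of the 32851 windows, 10 (0.0304%) overlap any of 408 RefSeq transfer RNA genes. That overlap was searched for after the sequence had been seen. Promoter windows were matched for 5 of the 10 genes: among the other 3, Polr3c held CACGTG at -237, Polr3b held CCGGAAGT on the opposite strand at -12, and Polr3k held none of the strings searched. The GENCODE start of Polr3c lies between this CACGTG and the RefSeq start, so the letters are nearer to the GENCODE start.

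Polr3e stood at 6.70, 6.71 and 6.65 in control. With BMH-21 it was 6.53 in each of the 2 h libraries, 6.18, 6.24 and 6.24 at 4 h, and 5.79, 5.84 and 5.79 at 8 h. With CX-5461 it was 6.60, 6.59 and 6.65 at 2 h, 6.29, 6.31 and 6.28 at 4 h, and 6.15, 6.14 and 6.10 at 8 h. Every later group mean was lower than the one before it with both inhibitors, and the replicates of each group lay close together. The falls were 0.15, 0.47 and 0.88 with BMH-21 (SE 0.03, limma adjusted p = 0.0007, 7.5e-12 and 2e-17), leaving 54.3% of the control level at 8 h; the 2 h value was -0.23 and not called on the deposited values. With CX-5461 the 2 h difference of -0.08 was not called (limma adjusted p = 0.086), and the falls were 0.39 at 4 h and 0.55 at 8 h (limma adjusted p = 2.1e-10 and 5.8e-13), leaving 68.2%. All 4 scalings called the falls at 4 h and 8 h. Over the 7 group means, the profile of Polr3e correlated with that of Polr3g at r = 0.990, the highest of any pair among the 10 genes, and that of Polr3a with Polr3d at 0.167, the lowest; the points share libraries and the correlations are descriptions.

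Polr3d (minus strand, chr14:70438757-70443447) was higher at 2 h of each inhibitor under 3 of the 4 scalings. Its control libraries were 6.04, 6.10 and 6.02, and its 2 h libraries were 6.42, 6.36 and 6.38 in BMH-21 and 6.26, 6.17 and 6.23 in CX-5461, above all controls. The rises were 0.33 (SE 0.04, limma adjusted p = 1.4e-07) and 0.17 (limma adjusted p = 0.001), called under centring, median-ratio factors and quantile normalization but not on the deposited values, where they were 0.26 and 0.02. After 4 h of BMH-21 Polr3d was 0.16 higher (limma adjusted p = 0.0004), which was 0.01 on the deposited values. By 8 h of BMH-21 it was 0.08 higher with overlapping groups (limma adjusted p = 0.047); the rise was 0.23 with median-ratio factors and 0.27 with quantile normalization (limma adjusted p = 5e-06 and 6.1e-07), and -0.13 and not called on the deposited values. Leaving out control replicate 1 or 3 or BMH-21 replicate 2 or 3 ended the centred call (0.06 to 0.08). With CX-5461 the later differences were 0.05 at 4 h and -0.08 at 8 h and were not called (limma adjusted p = 0.24 and 0.069). Polr3d was called higher at 4 h with median-ratio factors (0.14, limma adjusted p = 0.0016) and quantile normalization (0.18, limma adjusted p = 0.00015), and at 8 h with quantile normalization (0.10, limma adjusted p = 0.023).

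Polr3c, a subunit of the same initiation trimer as Polr3g (minus strand, chr3:96711490-96727628), and Polr3k, the subunit for RNA cleavage and termination (plus strand, chr2:181864337-181870830), had smaller falls than Polr3g, Polr3e and Polr3a at 8 h of BMH-21. Polr3c was 6.11, 6.26 and 6.15 in control, 5.70, 5.72 and 5.71 at 8 h of BMH-21 and 5.79, 5.83 and 5.79 at 8 h of CX-5461, with no overlap. Its falls at 8 h were 0.46 and 0.37 (SE 0.04, limma adjusted p = 7.6e-11 and 8.4e-09), the second being -0.16 and not called on the deposited values. At 4 h Polr3c had fallen by 0.29 with CX-5461 and 0.12 with BMH-21 (limma adjusted p = 4.2e-07 and 0.0071), and without control replicate 2 the latter was -0.08 (limma adjusted p = 0.082), and with quantile normalization it was -0.06 and not called. At 2 h of CX-5461 it was -0.12 (limma adjusted p = 0.023), and without control replicate 2 or CX-5461 replicate 1 it was -0.07 or -0.10 and not called. The other 3 scalings did not call that 2 h difference either (-0.26 on the deposited values, -0.08 with each of the others). Polr3k was 5.56, 5.68 and 5.51 in control and 5.14, 5.37 and 5.22 after 8 h of BMH-21, a fall of 0.34 (SE 0.06, limma adjusted p = 1.1e-05). With CX-5461 Polr3k fell by 0.25 at 4 h (limma adjusted p = 0.00067), a call shared by all 4 scalings. At 8 h it fell by 0.22 (limma adjusted p = 0.0016), which was -0.01 on the deposited values and -0.12 with the other 2 scalings, none of them called.

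**Figure D3:**
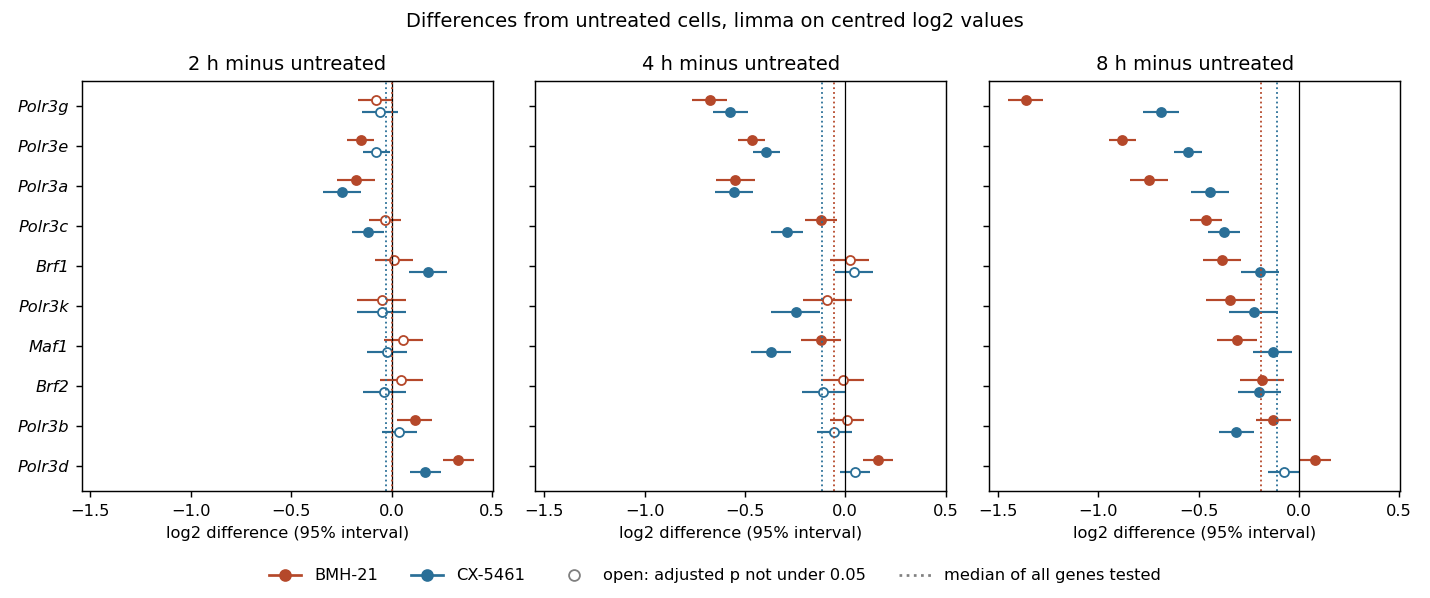
Log2 difference from control (x axis) with 95% confidence interval for each gene after 2 h, 4 h and 8 h of each inhibitor, filled where called by limma and with dotted lines at the median of all tested genes. At 8 h Polr3g lies lowest, at -1.36 with BMH-21 and -0.69 with CX-5461, and Polr3d lies nearest to 0.

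Brf1 (minus strand, chr12:112960085-113000704) fell at 8 h of BMH-21 and, on the centred scale, rose at 2 h and fell at 8 h of CX-5461. It stood at 4.90, 4.87 and 4.83 in control, at 4.82, 4.87 and 4.98 after 4 h of BMH-21, and at 4.48, 4.49 and 4.49 after 8 h. The 4 h libraries overlapped the controls, while the 8 h libraries were all lower, a fall of 0.38 (SE 0.05, limma adjusted p = 5e-08) called under all 4 scalings. After 2 h of CX-5461 Brf1 was 4.96, 5.09 and 5.10, a rise of 0.18 (limma adjusted p = 0.0031), which was 0.04 on the deposited values. After 8 h of CX-5461 it was 4.65, 4.68 and 4.70, a difference of -0.19 (limma adjusted p = 0.0006) that the deposited values turned to 0.02 and that was -0.09 and not called with median-ratio factors. Brf2 (minus strand, chr8:27123364-27128680) had the smallest range of the 10 genes, 0.25 between its highest and lowest group mean. It was 4.84, 4.94 and 4.84 in control, 4.68, 4.81 and 4.57 at 8 h of BMH-21 and 4.63, 4.64 and 4.75 at 8 h of CX-5461. Those differences were -0.18 and -0.20 (SE 0.05, limma adjusted p = 0.0024 and 0.0016); with median-ratio factors they were -0.04 and -0.10 and not called, and on the deposited values the second was 0.02.

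Within a library, the log2 ratio of Brf1 to Brf2 was 0.05, -0.06 and -0.01 in control. It was 0.16, 0.26 and 0.22 after 2 h of CX-5461 and 0.16, 0.14 and 0.14 after 4 h, above all controls, and -0.20, -0.32 and -0.09 after 8 h of BMH-21, below all of them. Each of these 3 had an exact permutation p of 0.1, the smallest possible (0.2 adjusted). The other 3 groups overlapped the controls. Exons of Brf1 share 532 bases (6.83%) with 9230104M06Rik and those of Brf2 73 bases (2.27%) with Adgra2, each on the opposite strand. Whether the counting used strand is not given in the sources used here, so reads of these neighbours may be included.

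Maf1, the repressor of the enzyme (plus strand, chr15:76351294-76354380), was lower on the centred scale at 4 h and 8 h of either inhibitor. In CX-5461 it was lowest at 4 h. It was 6.38, 6.30 and 6.35 in control. With BMH-21 it was 6.45, 6.32 and 6.43 at 2 h, 6.25, 6.15 and 6.27 at 4 h, and 5.97, 6.14 and 5.98 at 8 h. With CX-5461 it was 6.34, 6.27 and 6.35 at 2 h, 6.02, 5.93 and 5.97 at 4 h, and 6.20, 6.19 and 6.24 at 8 h. The 2 h groups overlapped the controls and the 4 h and 8 h groups did not. The falls were 0.31 at 8 h of BMH-21 and 0.37 at 4 h of CX-5461 (SE 0.05, limma adjusted p = 2.3e-06 and 2.5e-07), both called under all 4 scalings. After 4 h of BMH-21 the difference was -0.12 (limma adjusted p = 0.026), and leaving out control replicate 1 or 3 or BMH-21 replicate 2 ended that call (-0.12 to -0.08), as did median-ratio factors (-0.09) and quantile normalization (-0.04). After 8 h of CX-5461 it was -0.13 (limma adjusted p = 0.016), which became 0.08 on the deposited values and with quantile normalization, was -0.03 and not called with median-ratio factors, and lost its call without control replicate 1 (-0.11) or CX-5461 replicate 2 (-0.12).

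The inhibitors were compared directly at equal dose and time, for all 10 genes at 3 times, with p adjusted over all tested genes. At 2 h 2 of the 10 genes differed (background 15.4%, 7.83% higher with BMH-21 and 7.58% lower). Polr3d was 0.17 higher with BMH-21 (limma adjusted p = 0.0031) and Brf1 stood at -0.17 (limma adjusted p = 0.012). The Brf1 call was lost without BMH-21 replicate 1 (-0.16) or CX-5461 replicate 2 or 3 (-0.15). At 4 h 4 genes were higher with BMH-21 and 0 lower (background 45.8%, 27.4% higher and 18.5% lower): Maf1 by 0.25, Polr3c by 0.17, Polr3k by 0.16 and Polr3d by 0.11 (limma adjusted p = 0.00019, 0.0011, 0.033 and 0.015). With median-ratio factors and with quantile normalization 2 genes were higher, Maf1 and Polr3c, and 2 lower: Polr3e stood at -0.13 and -0.15 and Polr3g at -0.16 and -0.18 (limma adjusted p from 0.001 to 0.0042), where the centred values of -0.07 and -0.10 were not called; the stricter filter on low values also called Polr3g lower (limma adjusted p = 0.047). Without BMH-21 replicate 3 the count on the centred values was 2, as Polr3d (0.10) and Polr3k (0.12) lost their calls, and Polr3k lost it also without CX-5461 replicate 2 (0.17) or 3 (0.13). None of the 2 h and 4 h differences was called on the deposited values.

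At 8 h 6 genes were lower with BMH-21 than with CX-5461 and 2 were higher (background 71.7%, 40.6% lower and 31.1% higher). On the deposited values all 10 were called lower and 0 higher. There the median difference of all tested genes was -0.48, where it was -0.06 on the centred values. The share of called genes that were lower on the deposited scale is given further below. On the centred values Polr3g differed most, at -0.68, followed by Polr3e at -0.33 and Polr3a at -0.30 (SE 0.04, 0.03 and 0.05, limma adjusted p = 1.6e-12, 6.5e-09 and 3.5e-06). Brf1 was at -0.19 and Maf1 at -0.18 (limma adjusted p = 0.00086 and 0.002), and these 5 were lower under all 4 scalings. Polr3c was at -0.09 (limma adjusted p = 0.036), a call that leaving out BMH-21 replicate 1 or 3 or CX-5461 replicate 2 or 3 ended (-0.10 to -0.08). Polr3b was 0.19 and Polr3d 0.16 higher with BMH-21 (limma adjusted p = 0.00039 and 0.00064), signs that turned to -0.24 and -0.27 on the deposited values. Brf2 differed by 0.01 with a 95% interval of -0.09 to 0.12 and Polr3k by -0.12 with an interval of -0.24 to 0.00, so these p-values, 0.83 and 0.077 by limma after adjustment, do not show that the compounds act alike on them. On the deposited values both were called lower with BMH-21, Polr3k at -0.55 and Brf2 at -0.41 (limma adjusted p = 5.2e-06 and 0.00051).

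The 8 h libraries of each inhibitor were also compared with its 4 h libraries. With BMH-21 9 of the 10 genes were lower at 8 h than at 4 h and 0 higher (background 70.5%, 42.2% lower and 28.3% higher), from -0.69 for Polr3g, -0.41 for Polr3e and -0.40 for Brf1 to -0.14 for Polr3b. Under all 4 scalings 5 remained called, a count without a background share: Polr3g, Polr3e, Brf1, Polr3c (-0.34) and Polr3k (-0.25). With median-ratio factors Polr3a was at -0.09 and Maf1 at -0.08, neither called. Polr3b lost its call without the 8 h replicate 2 (-0.09) and Brf2 (-0.17) without the 8 h replicate 3 (-0.11). With CX-5461 5 genes were lower and 2 higher (background 57.8%, 32% lower and 25.8% higher). Maf1 was 0.24 higher at 8 h than at 4 h (limma adjusted p = 0.00017) and Polr3a 0.11 higher (limma adjusted p = 0.046), the only 2 of the 10 called higher under all 4 scalings; on the centred scale Polr3a lost its call without CX-5461 4 h replicate 1 or 3 or any of the 8 h replicates (0.09 to 0.12). The 5 lower genes ran from -0.26 for Polr3b to -0.11 for Polr3g (not called without the 4 h replicate 2 or 3 or the 8 h replicate 1 or 3, -0.11 to -0.10), but on the deposited values all 5 were above 0, from 0.11 for Polr3b to 0.26 for Polr3g. On the deposited values 7 of the 10 genes were called higher and 0 lower, where the median of all tested genes was 0.34. Polr3d and Polr3g were among those called higher (limma adjusted p = 0.037 and 0.033), opposite to their centred calls.

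**Figure D4:**
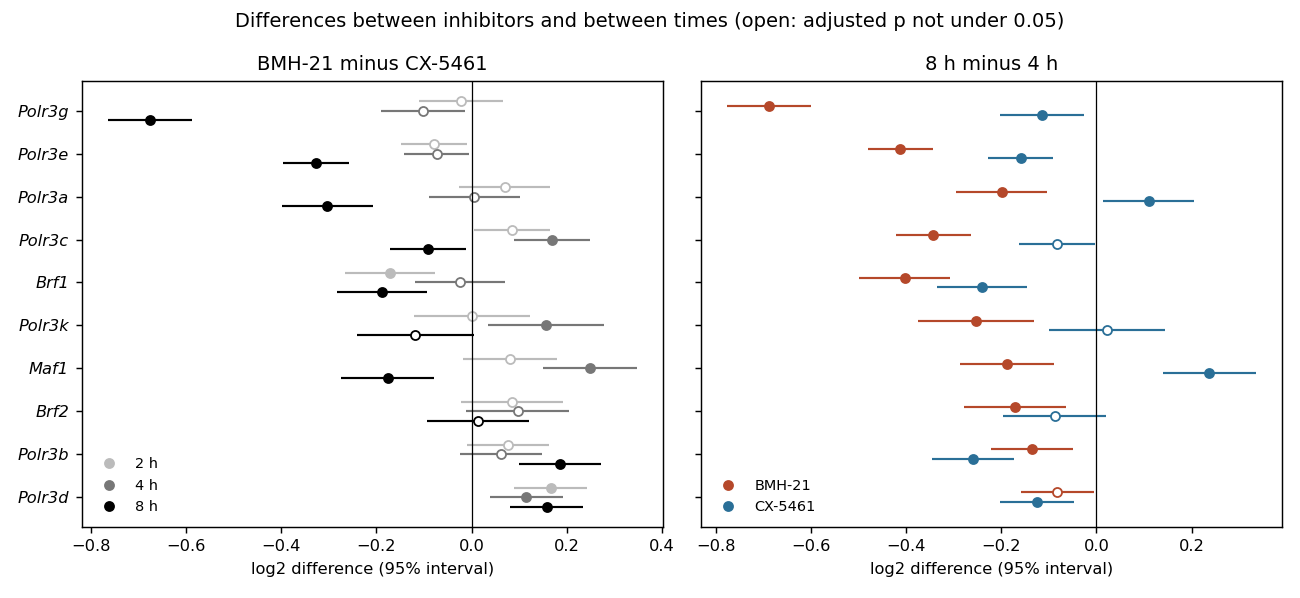
Log2 differences with 95% confidence intervals (x axis) of BMH-21 minus CX-5461 at each time and of 8 h minus 4 h within each inhibitor, per gene, filled where called by limma. Polr3g is lowest for BMH-21 against CX-5461 at 8 h (-0.68) and for BMH-21 at 8 h against 4 h (-0.69).

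The other 28 genes of the RNA polymerase III machinery, all tested, mostly fell too. The list is not specific to this enzyme. It includes subunits shared with other polymerases (Polr1c, Polr1d, Polr2e, Polr2f, Polr2h, Polr2k and Polr2l), Tbp, and the activators Pou2f1 and Zfp143. After 8 h of BMH-21 2 rose and 23 fell, with a median of -0.50, and after 8 h of CX-5461 1 rose and 21 fell, with a median of -0.35. In share, 82.1% and 75% of the 28 were lower, where 51.3% and 44.7% of all tested genes were lower and 33.3% and 29.3% higher. At 2 h the counts were 6 higher and 1 lower with BMH-21 and 8 higher and 4 lower with CX-5461, and at 4 h 6 higher and 12 lower in BMH-21 and 5 higher and 16 lower in CX-5461. Over all tested genes the shares were 18.6% higher and 17.5% lower, and 15.8% and 17.8%, at 2 h, and 32.2% and 41.5%, and 28.5% and 45.7%, at 4 h. The largest rise at 8 h with each inhibitor was that of Gtf3c1, the largest subunit of TFIIIC, which recognises the internal promoter of transfer RNA genes. Gtf3c1 was 1.15 higher after 8 h of BMH-21 and 0.61 higher after 8 h of CX-5461 (limma adjusted p = 1.3e-17 and 7.2e-12), and both 4 h groups were already higher, by 0.82 and 0.92. The largest fall was that of Polr2e, a subunit shared by the 3 nuclear RNA polymerases, by 1.14 and 0.81 (limma adjusted p = 6.6e-17 and 1.9e-13). These calls of Gtf3c1 and Polr2e at 8 h held under all 4 scalings. The counts and medians of the 28 genes are on the centred scale and were not repeated under the other scalings.

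Genes specific to the other polymerases mostly fell as well. Of 12 RNA polymerase I genes, 2 rose and 10 fell after 8 h of BMH-21, with a median of -0.66, and 0 rose and 11 fell after 8 h of CX-5461, with a median of -0.50. Of 8 subunits specific to RNA polymerase II, 1 rose and 6 fell with a median of -0.60, and 0 rose and 7 fell with a median of -0.31. The shares lower were 83.3% and 91.7% of the first list and 75% and 87.5% of the second, beside 51.3% and 44.7% of all tested genes. The medians of the 10 genes described here, -0.36 and -0.27, were closer to that of all tested genes than those of the 12 RNA polymerase I genes were. Counts and medians of these lists are on the centred scale too and were not repeated under the other scalings. For the 10 genes, those lower after 8 h of CX-5461 numbered 9 on that scale, 2 on the deposited values and 5 with median-ratio factors. The median differences of all tested genes were -0.11, 0.11 and -0.01 in the same order.

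**Figure D5:**
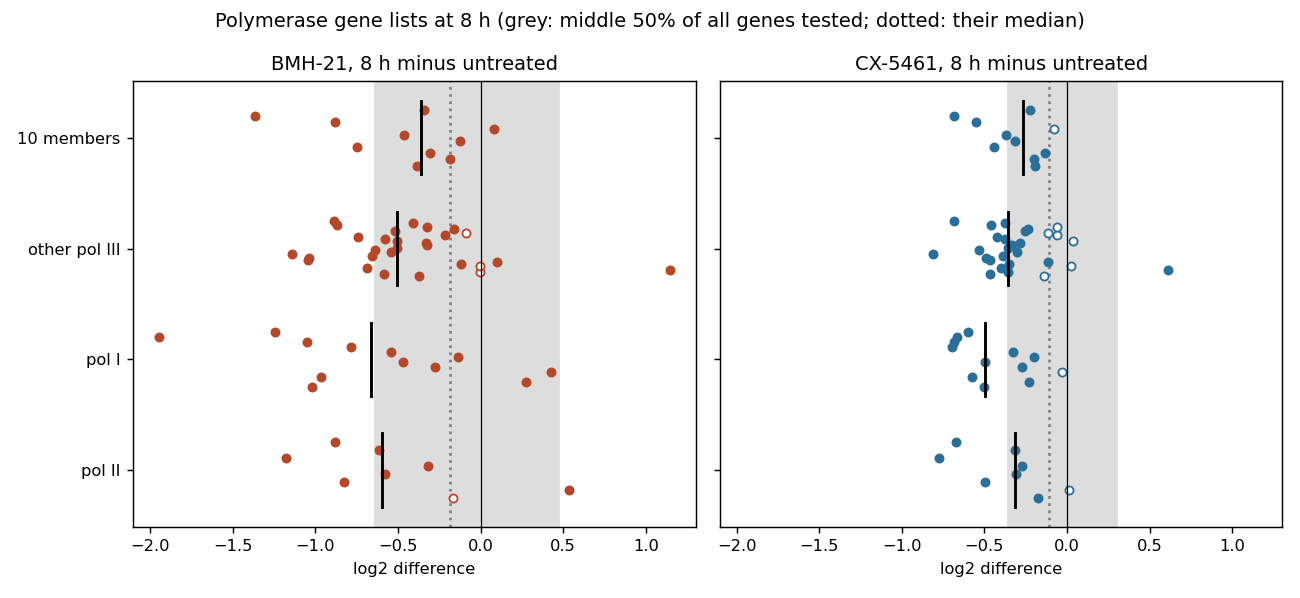
Log2 difference from control at 8 h (x axis) for each gene of 4 lists (y axis) and each inhibitor, filled where called by limma; short bars are list medians, the dotted line the median of all tested genes and the grey band their middle 50%. The 28 other RNA polymerase III genes have medians of -0.50 and -0.35, and Gtf3c1 stands highest, at 1.15 and 0.61.

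Markers of pluripotent cells moved with these groups. All 10 such genes fell after 8 h of BMH-21 (median -1.19), and 8 fell and 1 rose after 8 h of CX-5461 (median -0.54). Over all tested genes 51.3% were lower and 33.3% higher after 8 h of BMH-21 (median -0.19). The shares after 8 h of CX-5461 were 44.7% and 29.3% (median -0.11). These marker counts are on the centred scale and were not repeated under the other scalings. Their summed normalized level, on a linear scale, was 6739 to 6867 in control libraries, 3257 to 3741 at 8 h of BMH-21 and 4963 to 5034 at 8 h of CX-5461. Over the same 3 groups the summed markers of trophectoderm ran from 89.1 to 92.0, 146 to 152 and 117 to 130, those of primitive endoderm from 14.6 to 15.9, 20.7 to 21.2 and 14.2 to 15.9, those of fibroblasts from 30.6 to 31.5, 43.3 to 48.5 and 34.9 to 36.6, and those of neural cells from 167 to 197, 109 to 118 and 182 to 184. At 4 h the trophectoderm sum lay below its control range: BMH-21 libraries spanned 64.9 to 68.4, CX-5461 libraries 60.8 to 62.8. The primitive endoderm and fibroblast sums lay above their control ranges at 4 h of either inhibitor, and the neural sums overlapped theirs. Linear sums weigh abundant genes most, and directions of single markers in these lists are not given. No marker was at 0 reads in all libraries. The filter on low values was passed by 4 of 5 trophectoderm and 3 of 5 fibroblast markers. The part of these markers' changes in the results above was not tested. Of the 10 genes only Polr3g spanned more than 1 log2 unit over the 7 group means, and the tested genes whose means followed it most closely were Spag7 and Ddx21, a nucleolar RNA helicase, each at r = 0.999 over 7 groups. Spag7 stood at -1.08 and -0.54, and Ddx21 at -1.18 and -0.63, against control at 8 h of BMH-21 and CX-5461.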

How the data were processed

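Messenger RNA of 21 samples was sequenced from poly(A)-selected, strand-marking libraries, per the labels' protocols. The authors deposited 1 table of log2 normalized values for 20900 genes, of the kind that limma's voom makes. The submitters' processing notes name Trim Galore 0.5.0, TopHat2 2.1.1, R 4.0.5, DESeq2 1.30.1, edgeR 3.32.1, limma 3.46.0 and mm10; the read counter, annotation, strand setting and filters are not given in the sources used here. The deposited log2 values held whole reads with an offset of 0.5 read (largest deviation from a whole number 1.73e-08), which gave the depths stated above.

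Genes with a deposited log2 value above 0 in at least 3 of 21 libraries were tested (14666; 6234 were below). Each library was centred on the median of these genes, and the mean of the 21 medians was added back. A linear model with 1 mean per group was fitted in limma 3.58.1 (R 4.3.3) with a mean-variance trend, two-sided, for 11 comparisons, with Benjamini-Hochberg adjustment over all tested genes at 0.05. Ratios within a library used exact two-sided permutation tests. The model was run on simulated reads in which few genes changed, in the group at 8 h of BMH-21 alone. That run cannot check the centring where most genes were called, as at 4 h and 8 h here. Replicates of a group differed by more than sampling noise (chi-square per degree of freedom 2.58 to 26.0), so each counted as 1 sample.

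All 10 genes are named, with Polr3gl as a paralog. From the 28 other RNA polymerase III genes the largest rise and fall at 8 h of each inhibitor are named, and for each gene spanning more than 1 over the group means the 2 genes with the highest correlation. The genes, lists and rules were chosen with earlier results of these data known. Gene models and exon overlaps came from GENCODE M21 (GRCm38), promoters and transfer RNA genes from RefSeq (GRCm38.p6), for 5 of the 10 genes. Alternatives covered scaling, filter, offset, variance model, samples fitted, a replicate block and leaving out each library.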

Additional observations from a re-analysis of the deposited data

Results flagged for a closer look

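The results here are those where the difference between the inhibitors at 1 time, or between 8 h and 4 h of 1 inhibitor, itself passed limma's test over all genes, on the centred log2 scale. They are given as values without explanation. The background shares of called genes stand in the report.

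BMH-21 minus CX-5461 was 0.17 for Polr3d and -0.17 for Brf1 at 2 h. At 4 h it was 0.17 for Polr3c, 0.11 for Polr3d, 0.16 for Polr3k and 0.25 for Maf1. At 8 h it was -0.30 for Polr3a, 0.19 for Polr3b, -0.092 for Polr3c, 0.16 for Polr3d, -0.33 for Polr3e, -0.68 for Polr3g, -0.19 for Brf1 and -0.18 for Maf1. Polr3d was the only gene of the 10 called at all 3 times, higher with BMH-21 at each, and on the deposited values its 8 h difference was -0.27.

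The 8 h minus 4 h difference with BMH-21 was -0.20 for Polr3a, -0.14 for Polr3b, -0.34 for Polr3c, -0.41 for Polr3e, -0.69 for Polr3g, -0.25 for Polr3k, -0.40 for Brf1, -0.17 for Brf2 and -0.19 for Maf1. With CX-5461 it was 0.11 for Polr3a, -0.26 for Polr3b, -0.12 for Polr3d, -0.16 for Polr3e, -0.11 for Polr3g, -0.24 for Brf1 and 0.24 for Maf1. On the centred scale Polr3a and Maf1 moved down with BMH-21 and up with CX-5461 between the same times. With median-ratio factors the BMH-21 differences were -0.088 and -0.076, and with quantile normalization -0.096 and -0.072, none of them called. The Polr3a rise with CX-5461 lost its call on leaving out single libraries.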

How the results depend on the processing

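Scaling changed more than any other choice. Over the 11 comparisons, 27 single-gene differences changed sign on the deposited values, 9 with median-ratio size factors, 12 with quantile normalization and 1 with voom precision weights; the causes were not tested. The falls of Polr3g and Polr3e at 4 h and 8 h of both inhibitors were called under every scaling. The number of the 10 genes called on the deposited values was 0 after 2 h of BMH-21 (main 4), 1 after 2 h of CX-5461 (4), 2 after 8 h of CX-5461 (9), 0 for BMH-21 against CX-5461 at 2 h (2) and 0 at 4 h (4). At a raw p under 0.05 on the centred values the last 2 counts were 4 and 6. Median-ratio factors called 5 after 8 h of CX-5461 and 5 between 8 h and 4 h of BMH-21 (9).

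On the deposited values the following differences changed sign. For 2 h of BMH-21 against control they were -0.064 for Brf1, -0.026 for Brf2, -0.017 for Maf1 and -0.0047 for Gtf3c1; for 4 h, -0.14 for Polr3b and -0.13 for Brf1; and for 8 h, -0.13 for Polr3d. For CX-5461 they were -0.11 for Polr3b and -0.12 for Polr3gl at 2 h, -0.11 for Polr3d and -0.11 for Brf1 at 4 h, and 0.14 for Polr3d, 0.022 for Brf1, 0.018 for Brf2 and 0.084 for Maf1 at 8 h. Between the inhibitors they were 0.048 for Polr3g at 2 h and -0.24 for Polr3b, -0.27 for Polr3d and -0.41 for Brf2 at 8 h. Between 8 h and 4 h of CX-5461 they were 0.11 for Polr3b, 0.29 for Polr3c, 0.25 for Polr3d, 0.21 for Polr3e, 0.26 for Polr3g, 0.13 for Brf1, 0.29 for Brf2 and 0.067 for Gtf3c1.

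With median-ratio factors the changed signs were 0.020 for Brf2 (4 h of BMH-21), 0.018 for Polr3b (8 h of BMH-21), 0.00065 for Brf2 and 0.014 for Maf1 (2 h of CX-5461), 0.038 for Polr3b (4 h of CX-5461) and 0.024 for Polr3d (8 h of CX-5461). Between inhibitors they were -0.027 for Polr3k at 2 h and -0.052 for Polr3a at 4 h, and between 8 h and 4 h of BMH-21 0.029 for Polr3d. With quantile normalization they were 0.0048 for Brf2 (4 h of BMH-21), 0.15 for Polr3b (8 h of BMH-21), 0.0042 for Maf1 (2 h of CX-5461), 0.12 for Polr3b (4 h of CX-5461), and 0.099 for Polr3d, 0.077 for Maf1 and -0.12 for Polr3gl (8 h of CX-5461). Between inhibitors they were -0.017 for Polr3k at 2 h, and -0.062 for Polr3a and -0.030 for Polr3b at 4 h. Between 8 h and 4 h of BMH-21 they were 0.059 for Polr3b and 0.039 for Polr3d. Voom weights gave -0.00037 for Polr3k between inhibitors at 2 h. Quantile normalization, which alone of these scalings can change a ratio within a library, gave a Polr3g to Polr3gl ratio change of -0.44 after 8 h of BMH-21, -0.36 after 8 h of CX-5461 and 0.086 after 4 h of CX-5461.

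Leaving out each library in turn gave 1 to 2 called genes for BMH-21 against CX-5461 at 2 h and 2 to 5 at 4 h. Differences whose sign changed in that way ranged as follows. For 2 h of BMH-21 they ran from -0.0065 to 0.028 for Brf1, from -0.063 to 0.015 for Polr3c and from -0.084 to 0.0015 for Polr3k. For 4 h of BMH-21 they ran from -0.015 to 0.042 for Polr3b, from -0.25 to 0.0022 for Polr3gl, from -0.030 to 0.019 for Brf2 and from -0.023 to 0.058 for Brf1. With CX-5461 they ran from -0.039 to 0.12 for Polr3gl and from -0.043 to 0.0031 for Maf1 at 2 h, and from -0.023 to 0.13 for Polr3gl at 8 h. Between inhibitors they ran from -0.026 to 0.036 for Polr3k at 2 h, from -0.032 to 0.062 for Polr3a and from -0.069 to 0.012 for Brf1 at 4 h, and from -0.047 to 0.071 for Brf2 at 8 h. Between 8 h and 4 h of CX-5461 Polr3k ran from -0.0083 to 0.078. None of these differences was called with all libraries.

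Same-numbered replicates did not deviate together (mean correlation -0.02 over 63 pairs, different numbers 0.01, and 4 of 21 libraries closest to their own number), so the numbers were not taken to pair the samples. A replicate block ended 1 call, that of Polr3d at 8 h of BMH-21 (adjusted p = 0.059 by limma). Over all tested genes the deposited values gave 2891 calls after 2 h of BMH-21 (5285 on the centred values), 585 between inhibitors at 2 h (2261) and 2617 at 4 h (6719). The share of called genes that were lower went from 56.3% to 67.1% (4 h of BMH-21), 53.1% to 73.3% (2 h of CX-5461), 61.6% to 72.1% (4 h of CX-5461), 60.4% to 28.9% (8 h of CX-5461), 49.2% to 38.1% (between inhibitors, 2 h), 56.6% to 84.9% (8 h) and 55.3% to 7.62% (CX-5461, 8 h against 4 h) on the deposited values. Median-ratio factors gave 40.6% (2 h of CX-5461), 50.1% (8 h of CX-5461), 63.6% and 57.8% (between inhibitors at 2 h and 4 h; centred 40.3% at 4 h) and 47.0% (BMH-21, 8 h against 4 h; centred 59.8%), and quantile normalization 51.7% between inhibitors at 4 h. Each of the 10 genes had at least 1223 reads per library, and the part of depth in the spread of these values was not tested. An absolute change in the RNA of a cell cannot be told apart from scaling in these libraries. They have no spiked-in standard in the sources used here.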

Other observations

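Of 8 transcripts made by RNA polymerase III that were looked for, the table lists Rmrp, the RNA of RNase MRP, with 15 to 198 reads per library, Rpph1, the RNA of RNase P, with 42 to 282 reads, and Vaultrc5, a vault RNA, with 0 to 6 reads. These RNAs normally have no poly(A) tail, so reads left after poly(A) selection need not follow their amount in the cell. Rpph1 had 83, 107 and 52 reads in the control libraries and 178, 282 and 117 after 8 h of CX-5461. It rose by 0.96 after 8 h of CX-5461, above all controls (SE 0.29, limma adjusted p = 0.0048), and was at -0.72 after 8 h of BMH-21 with overlapping groups (limma adjusted p = 0.024). BMH-21 minus CX-5461 at 8 h was -1.68 for Rpph1 without overlap (limma adjusted p = 1.7e-05). Rmrp had 17, 22 and 31 reads after 8 h of BMH-21 and 85, 198 and 15 after 8 h of CX-5461, a difference of -1.56 with overlapping groups (SE 0.66, limma adjusted p = 0.038).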
